A study of Rattus norvegicus with 18 samples.

Results

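This account is about NRK-52E cells exposed to aristolochic acid (AA) for 24 h, set against cells that received only the solvent for the same time. It rests on 6 of the 18 arrays of the study, 3 for AA at 24 h and 3 for DMSO at 24 h, chosen by the treatment and time in their titles. NRK-52E is an established rat kidney line that the labels describe as renal proximal tubular and assign to the Osborne-Mendel strain. Confluent cells in 6-well plates were given AA at 1.65 µM dissolved in DMSO (0.1%), and the controls were given 0.1% DMSO without AA, so that both groups carried the solvent. The dose was the one that inhibited the cells by 10% at 72 h, per the labels. The other 12 arrays held AA and DMSO cells at 6 h and at 72 h, with 3 arrays in each group. The 3 arrays of a group are labelled as biological replicates, with no word on shared plates or days. The p-values therefore reflect only how these samples varied, which may be technical.

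Aristolochic acids are nitrophenanthrene carboxylic acids of Aristolochia plants. Enzymes of the cell reduce their nitro group, and the product binds purine bases of DNA as bulky adducts that block polymerases. Cells answer such lesions with the p53 programme, which raises the cyclin-dependent kinase inhibitor p21 (Cdkn1a), and with checkpoint and repair pathways. Dividing cells switch on replication genes in late G1 and S phase through E2F factors, and mitotic genes later through B-MYB, FOXM1 and the DREAM and MuvB complexes. In bulk RNA, fewer cells of a type and less RNA per cell cannot be told apart, and the same holds for a higher share of cells in a cycle phase and more RNA per cell.

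Values are deposited log2 expression values, and a fold change is the AA mean minus the DMSO mean on that scale, given with its standard error (SE). A gene rose or fell where limma's moderated test, fitted to all genes and all 18 arrays and adjusted by Benjamini-Hochberg, gave an adjusted p under 0.05. A gene whose lower group averaged under log2 4 is called near the floor, because weak probe sets pile up there. A call is said to hold where it also passed in each of the 6 fits that left out 1 array of 24 h. Where it did not, the highest adjusted p of those fits is given once for the gene, with the array left out. Levels of different genes are not comparable on these arrays.

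The 24 h arrays were alike in the measures of quality. Replicates of a group correlated across genes with r from 0.997 to 0.999, and the median SD between replicates was 0.117 in DMSO and 0.0919 in AA. The 3' minus 5' differences of the actin, Gapdh and hexokinase controls overlapped between AA and DMSO (two-sided exact permutation p = 0.9, 0.9 and 0.8, where 0.1 is the smallest that 3 against 3 allows). Array medians overlapped too, at 4.107 to 4.152 in AA and 4.132 to 4.203 in DMSO (exact permutation p = 0.3). Markers were counted as reaching log2 4 by their mean over the 6 arrays of 24 h. Of 25 proximal tubule markers, 4 reached log2 4 (Ggt1, Mme, Slc4a4 and Slc7a9), while Lrp2, Cubn, Aqp1, Slc34a1 and Slc22a6 did not. The summed linear level of those 25 markers was 441 to 547 on the AA arrays and 593 to 692 on the DMSO arrays, and its part in the results was not tested. Most of that gap was in Slc4a4, a bicarbonate cotransporter, with linear means of 258 in AA and 410 in DMSO, while Ggt1 and Slc7a9 were higher in AA (20.4 against 15.9 and 49.1 against 32.7). Genes were tested by another rule, where 3 or more of the 18 arrays reached log2 4. None of the 5 proximal tubule markers tested passed. Their median log2 fold change was 0.36, and -0.0027 over all on the array when the filter on low values was dropped. Of 18 markers of simple epithelium, 4 reached log2 4 (Krt8, Ocln, Tjp1 and Jup), and Cdh1, Epcam and Krt18 did not. Of 12 fibroblast markers, 6 did (Col1a1, Col1a2, Col3a1, Postn, Acta2 and S100a4), with summed linear levels of 29900 to 40300 in AA and 27200 to 32000 in DMSO. No marker of loop, distal tubule and collecting duct (16 on the array) or of immune cells (14) reached log2 4, and 1 of 11 endothelial markers did (Tek). The immune marker Cd68 averaged 4.06 in DMSO and 3.93 in AA.

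At 24 h, 188 of 9016 genes differed between AA and DMSO (2.09%), 163 of them higher in AA (1.81%) and 25 lower (0.277%). The changes were small: the median log2 fold change was 0.78 over the genes that rose and -0.84 over those that fell, and 23 and 10 of them reached 2-fold. Over all genes the median was -0.01, and 47.4% of genes had a positive value. For all 188 the AA and DMSO arrays did not overlap, as was so for 19.5% of all genes tested (9.04% with AA above and 10.4% with AA below). The count of calls depended on single arrays. Without AA replicate 1, 87 genes rose and 13 fell, without AA replicate 2 these were 92 and 12, without DMSO replicate 1 they were 98 and 8, and without DMSO replicate 3 they were 89 and 13. Without AA replicate 3, 137 rose and 13 fell, and without DMSO replicate 2 the rises increased to 182, with 21 falls. Of the 163 that rose, 69 held in all 6 of these fits, and of the 25 that fell, 6 did.

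Most of the genes that rose belong to cell division and DNA replication. Of 288 tested members of 11 lists of this machinery, 110 rose (38.2%) and 0 fell, against 53 of the 8728 genes outside those lists (0.607%). At an unadjusted p under 0.05 in the same limma fit, 165 of the 288 were higher and 0 lower, where 6.26% of all tested genes were higher and 4.9% lower, and none of the 14 alternative fits called any of them lower. The median log2 fold change of the 288 was 0.34, and 251 were positive. Their mean level was 8.79, 8.78 and 8.70 on the AA arrays and 8.31, 8.40 and 8.29 on the DMSO arrays, so the groups did not overlap. The members that rose numbered 60 to 105 when 1 array of 24 h was left out. The lists were not all alike, as the plot of list shares shows, and the 3 lists with medians of 0.76 or more were those of mitotic entry, the kinetochore and the spindle.

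**Figure D1:**
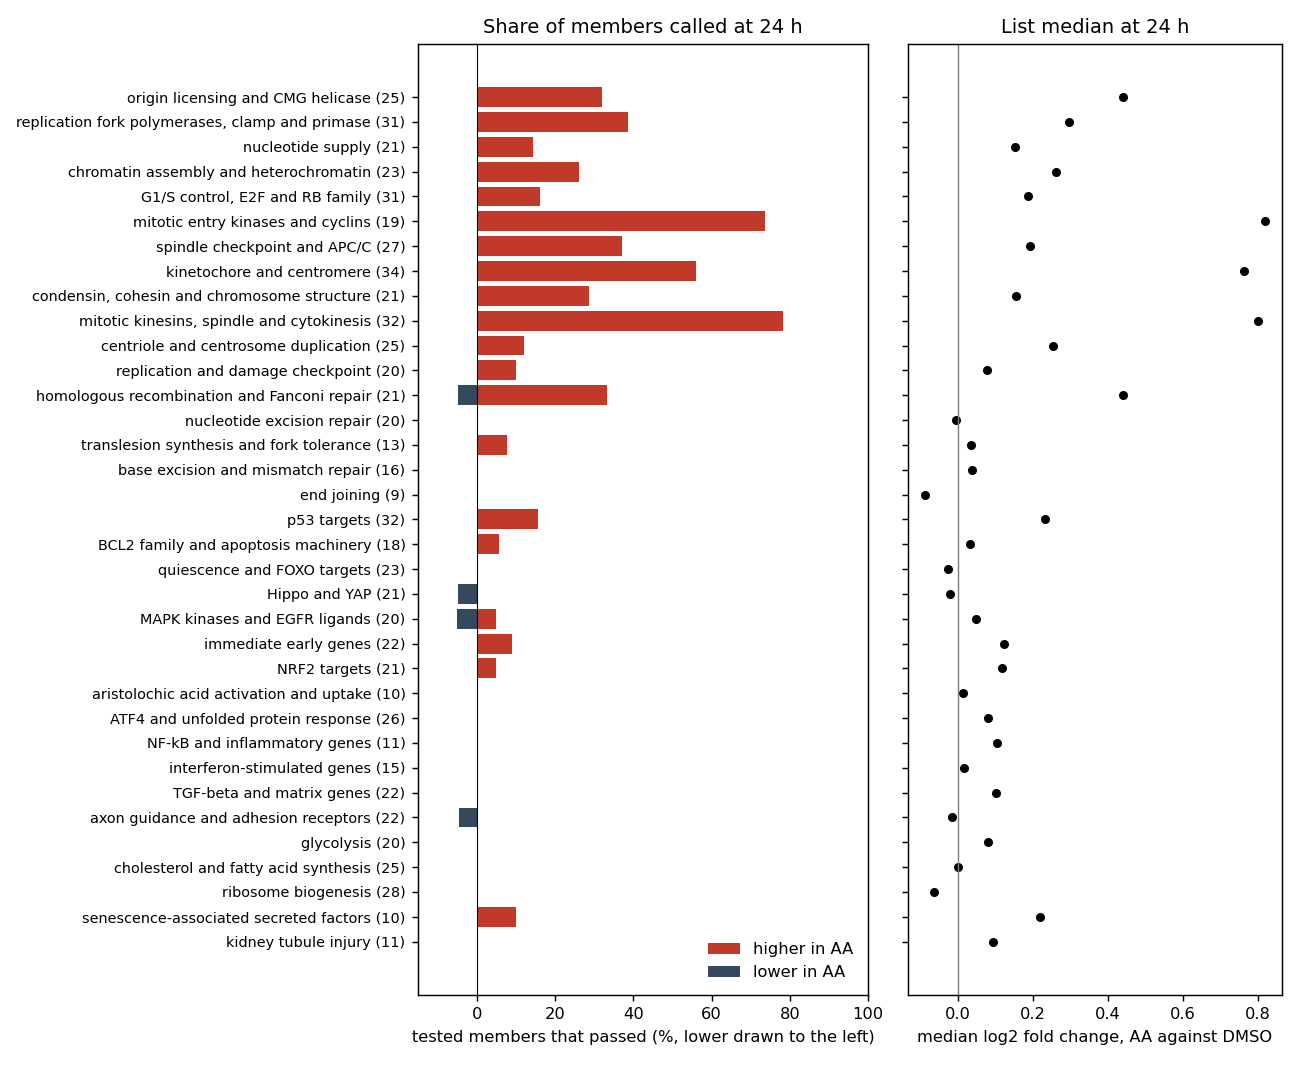
Left, the percentage of tested members of each gene list shown (their number in brackets) that were called higher (red) or lower (dark, drawn to the left) in AA than in DMSO at 24 h; right, the median log2 fold change of each list. The lists of mitotic entry, kinetochore and spindle genes have medians between 0.76 and 0.82, and the lists of excision repair, end joining, stress and metabolism lie near 0.

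Mitotic entry is driven by CDK1 with its cyclins and by the Polo and Aurora kinases. Of 19 tested genes of this list 14 were called, all of them higher, and the median was 0.82 (0.72 to 0.91 and 6 to 14 rises when 1 array was left out). Cdk1 itself read 11.75, 11.60 and 11.54 with AA and 10.92, 11.10 and 11.05 with DMSO. The lowest AA array lay above the highest DMSO array, and the difference of 0.61 (SE 0.10, adjusted p = 0.00194) held in all fits. Gtse1, a microtubule-binding protein of G2 and mitosis that also restrains p53, had the greatest rise of the list. It read 8.98, 9.13 and 9.23 with AA and 7.89, 8.10 and 7.96 with DMSO, a difference of 1.13 (SE 0.13, adjusted p = 0.000134) that held. Melk and Pbk, mitotic kinases, rose by 0.91 (adjusted p = 0.00131) and 0.90 (adjusted p = 0.00199), and both held.

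Other drivers of mitosis moved the same way but rested on fewer arrays. Ccnb1, the cyclin B1 partner of CDK1, read 9.56, 9.46 and 9.16 with AA and 8.28, 8.74 and 8.70 with DMSO. Its rise of 0.82 (adjusted p = 0.0372) was lost in 4 of the 6 fits without 1 array (adjusted p up to 0.256, without DMSO replicate 1). A second probe set of the gene rose by 1.13 (adjusted p = 0.0032). Ccna2, cyclin A2, rose by 0.69 (adjusted p = 0.0216, and 0.122 without AA replicate 1). Foxm1, the transcription factor of the G2 programme, rose by 0.85 (adjusted p = 0.012, and 0.087 without DMSO replicate 3). Pkmyt1, a kinase that inhibits CDK1, rose by 0.94 near the floor (adjusted p = 0.00646, and 0.0566 without AA replicate 1). Thus the list's rises included an inhibitor of entry, and Wee1, the other such kinase, had a log2 fold change of 0.13 that did not pass. Mybl2, which encodes B-MYB, read 5.28, 5.90 and 5.29 with AA and 4.22, 5.01 and 4.70 with DMSO, a difference of 0.84 that did not pass (SE 0.30, adjusted p = 0.224).

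**Figure D2:**
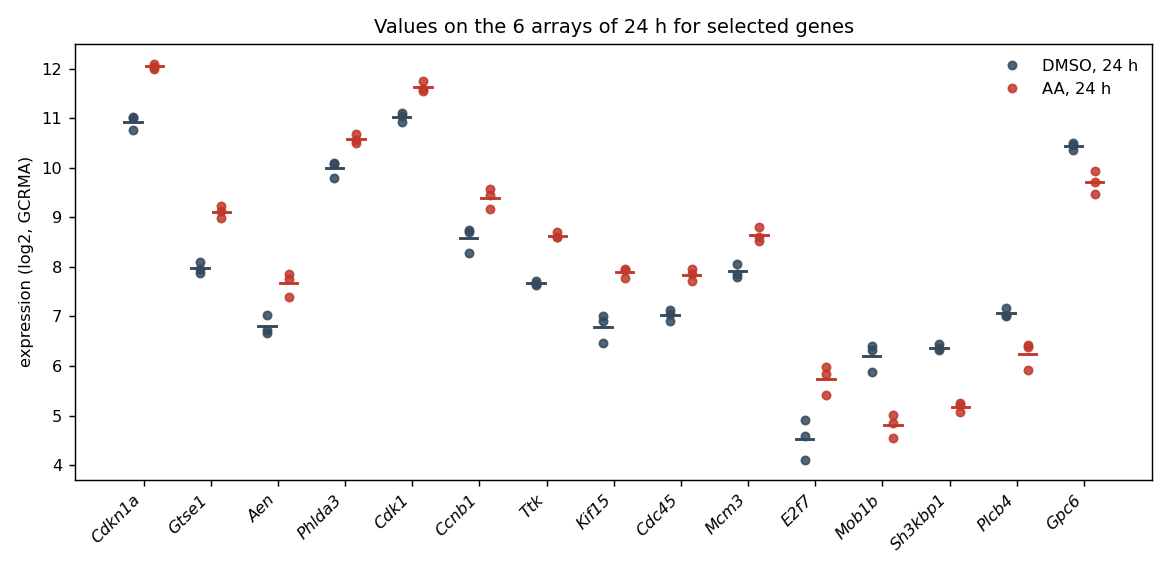
Log2 expression on each of the 3 AA (red) and 3 DMSO (dark) arrays of 24 h for 15 genes, with a bar at each group mean; the level of one gene is not comparable with that of another. For each gene shown the AA and DMSO arrays do not overlap, and Mob1b, Sh3kbp1, Plcb4 and Gpc6 are the ones lower in AA.

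The kinetochore is the protein assembly that ties centromeres to spindle microtubules. Of 34 tested genes of kinetochore and centromere, 19 rose and 0 fell (median 0.76, and 12 to 17 rises when 1 array was left out). The outer NDC80 complex, which grips microtubules, was represented by 3 tested subunits, all of which rose: Spc24 by 1.05 (adjusted p = 0.00102, held), Nuf2 by 0.89 (adjusted p = 0.00131, held) and Spc25 by 0.80 (adjusted p = 0.00612, and 0.0528 without DMSO replicate 3). Cenpm, an inner subunit, read 7.34, 7.43 and 7.37 with AA and 6.10, 6.56 and 6.25 with DMSO. The spread of the AA arrays was 0.05 (SD, n = 3) around their mean, and the rise of 1.08 (adjusted p = 0.000997) held. Birc5, the survivin subunit of the chromosomal passenger complex, rose by 1.0 (adjusted p = 0.00143, held), as did Ska1 of the SKA complex by 0.81 (adjusted p = 0.000609, held). Mis18a, which helps load the centromeric histone, rose by 0.87 (adjusted p = 0.000535, held). Other members, among them Mis12, Zw10 and Ska2, had log2 fold changes of -0.01, 0.03 and 0.07.

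The list of mitotic kinesins, spindle and cytokinesis genes had the highest share of rises, 25 of 32, with 0 falls (median 0.80, and 17 to 24 rises when 1 array was left out). Tacc3, a spindle scaffold bound by Aurora A, read 8.13, 7.94 and 7.89 with AA and 6.78, 7.06 and 6.83 with DMSO, a rise of 1.10 (SE 0.16, adjusted p = 0.000609) that held. Kifc1, a minus-end motor that clusters centrosomes, rose by 1.07 (SE 0.16, adjusted p = 0.000996), and its AA arrays at 8.14, 7.95 and 8.06 all exceeded the DMSO arrays at 6.80, 7.25 and 6.89. Aspm, which focuses spindle poles, read 9.47, 9.61 and 9.52 against 8.44, 8.65 and 8.60, a rise of 0.97 (SE 0.12, adjusted p = 0.000429) that held. In these 3 genes the lowest AA array exceeded the highest DMSO array. The cytokinesis genes Racgap1, Ect2 and Prc1 rose by 0.88, 0.65 and 0.78, and the first of these held, while Ect2 reached an adjusted p of 0.0881 without AA replicate 1 and Prc1 one of 0.0568 without DMSO replicate 1. Numa1 and Ckap5, spindle proteins of the same list, had log2 fold changes of -0.13 and 0.19 that did not pass.

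The spindle checkpoint delays anaphase by inhibiting CDC20, the activator of the anaphase-promoting complex (APC/C). Of 27 tested genes 10 were called, all of them higher, and the median was 0.19. When 1 array was left out 3 to 10 were called, with 3 without AA replicate 1, 4 without AA replicate 2 or DMSO replicate 1 and 5 without DMSO replicate 3. The rises lay outside the ligase core: Ttk, Bub1, Bub1b, Mad2l1, Trip13, Cdc20, Fbxo5, Ube2c, Pttg1 and Espl1. The 12 tested core subunits of the ligase (those named Anapc, and Cdc16, Cdc23, Cdc26 and Cdc27) had none. Ttk, the kinase that starts the checkpoint, read 8.69, 8.60 and 8.60 with AA and 7.71, 7.65 and 7.64 with DMSO. The arrays of each group lay within 0.10 of each other, and the rise of 0.97 (SE 0.12, adjusted p = 0.000429) held. Ube2c, the ubiquitin-conjugating enzyme of the APC/C, rose by 0.92 (adjusted p = 0.00328, held), and Espl1, separase, by 0.98 (adjusted p = 0.00445, held). Cdc20 read 8.77, 8.77 and 8.42 with AA and 7.65, 7.95 and 7.62 with DMSO, a rise of 0.91 (adjusted p = 0.0167). That call was lost in 4 of the 6 fits without 1 array (adjusted p up to 0.0882, without AA replicate 1). It was also lost, at 0.36, when probe sets were averaged (adjusted p = 0.136). Ttk, Ube2c and Espl1 held, and the other rises of this list did not, with adjusted p of 0.0549 for Bub1, 0.114 for Mad2l1 (both without AA replicate 1), 0.105 for Trip13 (without AA replicate 2), 0.221 for Bub1b and 0.135 for Fbxo5 (both without DMSO replicate 1) and 0.0824 for Pttg1 (without DMSO replicate 3).

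Condensin and cohesin shape and hold chromosomes. Of 21 tested genes of chromosome structure, 6 rose and 0 fell (median 0.16): Ncaph and Ncapd2 of condensin I, Esco2, Top2a, Mki67 and Cdca2. Of these Ncapd2 did not hold (adjusted p = 0.125 without AA replicate 1). Esco2, the cohesin acetyltransferase of S phase, read 8.06, 8.26 and 8.02 with AA and 7.31, 7.33 and 7.08 with DMSO, a rise of 0.88 (SE 0.13, adjusted p = 0.000609) that held. Top2a, the topoisomerase that untangles sister chromatids, read 9.95, 10.11 and 9.97 against 8.66, 9.13 and 9.44, a rise of 0.94 (adjusted p = 0.00174) that held. Mki67, the proliferation marker Ki-67, rose by 0.69 (SE 0.11, adjusted p = 0.00128, held). The cohesin ring genes Smc1a, Smc3, Rad21 and Stag2 had log2 fold changes of 0.01, -0.01, 0.12 and -0.06. Centriole duplication gave 3 rises among 25 genes and 0 falls: Stil (0.88, adjusted p = 0.00612, held), Plk4 (0.54, adjusted p = 0.00927, and 0.0541 without DMSO replicate 3) and Tube1, whose second probe set went the other way with -0.08. Plk4, the kinase that licenses a new centriole, read 9.74, 9.77 and 9.79 with AA and 9.27, 9.24 and 9.17 with DMSO.

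Replication origins are licensed by the MCM helicase, which CDC45 and the GINS complex activate. Of 25 tested genes 8 were called, all of them higher, and the median was 0.44 (0.40 to 0.48 and 3 to 9 rises when 1 array was left out). They were Mcm3, Mcm4, Mcm5, Mcm7, Cdc45, Gins1, Gins3 and geminin (Gmnn), an inhibitor of licensing. Gmnn, Gins1, Gins3 and Mcm4 did not hold, with adjusted p of 0.126 without AA replicate 1, 0.243 without DMSO replicate 1, and 0.187 and 0.0992 without DMSO replicate 3. Mcm7 read 10.69, 10.69 and 10.50 with AA and 10.02, 10.15 and 9.99 with DMSO, a rise of 0.57 (SE 0.08, adjusted p = 0.000695) that held. Mcm5 rose by 0.72 (SE 0.13, adjusted p = 0.00317) and held, while Mcm3 rose by 0.74 (adjusted p = 0.0257, and 0.153 without AA replicate 1). Mcm2 and Mcm6 of the same helicase had log2 fold changes of 0.25 (adjusted p = 0.123) and 0.34 that did not pass. Cdc45 read 7.85, 7.96 and 7.71 with AA and 6.91, 7.05 and 7.13 with DMSO, a rise of 0.81 (adjusted p = 0.00445) that held, with other probe sets of the gene at 0.15 and 0.95. Orc1 to Orc5 of the origin recognition complex were at -0.08, -0.11, -0.15, -0.10 and -0.16, and none passed.

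At the fork, 12 of 31 tested genes rose and 0 fell (median 0.30, and 3 to 11 rises when 1 array was left out). The clamp loader, which places PCNA on DNA, had 4 of 5 subunits rise. Rfc3 read 7.96, 7.85 and 7.73 with AA and 7.25, 7.21 and 6.85 with DMSO, a rise of 0.75 (SE 0.12, adjusted p = 0.00128) that held. Rfc2, Rfc4 and Rfc5 rose by 0.50, 0.56 and 0.60, with highest adjusted p of 0.0924 without AA replicate 3, 0.114 without DMSO replicate 3 and 0.087 without DMSO replicate 3. The value of Rfc5 was 0.38 without that last array. Rfc1, the subunit that did not pass, was at 0.09. Pcna, the clamp itself, had a small rise of 0.26 (SE 0.06, adjusted p = 0.0172, and 0.117 without AA replicate 2), whereas its partner Pclaf read 11.84, 11.70 and 11.49 with AA and 10.75, 10.96 and 10.76 with DMSO and rose by 0.85 (adjusted p = 0.000609, held). Pola2 of the primase complex rose by 0.66 (adjusted p = 0.0183, and 0.115 without DMSO replicate 3), and Rpa2 of the single-strand binding protein by 0.58 (adjusted p = 0.00443, held).

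Nucleotide supply gave 3 rises among 21 genes and 0 falls, and chromatin assembly 6 among 23 and 0 falls, with medians of 0.15 and 0.26. When 1 array was left out, nucleotide supply had 1 to 3 rises (1 without AA replicate 1, AA replicate 2 or DMSO replicate 1) and a median of 0.09 to 0.19, lowest without AA replicate 1. Chromatin assembly had 2 to 4 (2 without AA replicate 1 or AA replicate 2, 3 without DMSO replicate 3), and 9 when arrays were centred. Dctpp1, which clears dCTP, read 8.53, 8.46 and 8.13 with AA and 7.35, 7.58 and 7.15 with DMSO, a rise of 1.02 (SE 0.15, adjusted p = 0.000782) that held. Rrm1, the large subunit of ribonucleotide reductase, rose by 0.56 (adjusted p = 0.00831, and 0.0669 without AA replicate 1). Tyms, thymidylate synthase, read 9.36, 9.37 and 9.38 against 8.86, 8.81 and 9.0, a rise of 0.48 (adjusted p = 0.0262, and 0.123 without DMSO replicate 1). H2az1, the histone variant H2A.Z, rose by 0.40 (SE 0.06, adjusted p = 0.00105, held). Chaf1a, the large subunit of the replication-coupled histone chaperone, rose by 0.73 (adjusted p = 0.0283, and 0.186 without DMSO replicate 3), and the genes of purine synthesis Gart, Atic, Ppat and Pfas lay at -0.16, -0.14, -0.18 and 0.03 and did not pass.

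Of 31 tested genes of G1/S control, 5 rose and 0 fell (median 0.19). When 1 array was left out 2 to 5 rose, with 2 without DMSO replicate 3 and 3 without any 1 of the AA arrays. They did not all promote the cycle: Cdkn1a is an inhibitor, and E2f7 and E2f8 are repressors of E2F targets. E2f7 read 5.99, 5.83 and 5.41 with AA and 4.91, 4.58 and 4.11 with DMSO, a rise of 1.21 (SE 0.22, adjusted p = 0.00327) that held. E2f8 rose by 0.86 (adjusted p = 0.014, and 0.0806 without DMSO replicate 3). Mybl1, a relative of B-MYB, read 8.12, 8.47 and 8.68 against 7.89, 7.80 and 7.69, a rise of 0.63 (adjusted p = 0.00762, and 0.056 without AA replicate 3). Ccne1, cyclin E1, rose by 0.48 (adjusted p = 0.0403, and 0.235 without DMSO replicate 3). The activator E2f1 was at 0.21 (adjusted p = 0.8), Ccnd1 at 0.11 (adjusted p = 0.75), Rb1 at -0.10 (adjusted p = 0.767) and the inhibitor Cdkn1b at -0.10 (adjusted p = 0.734). No gene of the quiescence and FOXO list passed in either direction among 23 tested, and 0 had an unadjusted p under 0.05 in the limma fit or a call in any alternative.

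Promoters of division genes carry short elements that read out their phase. The CHR element (TTTGAA, or TTCGAA, which is its own reverse complement) recruits MuvB complexes to mitotic genes, E2F sites (TTCCCGC and its variants TTGGCGC and also TTCGCGC and finally TTGCCGC) mark replication genes, and the CCAAT box (CCAAT) binds NF-Y. Both strands were searched in windows from 250 bases before to 50 after the start, from RefSeq on GRCr8, using the first window listed for a gene. A window was found for 7624 of the 9016 genes tested and for 133 of the 163 that rose. A CHR match lay in 13.2% of all those windows, in 45.1% of those of genes that rose, in 68.3% of the 63 that rose and belong to the mitosis lists, and in 26.9% of the 26 that rose and belong to the replication lists. An E2F match lay in 19% of all, in 35.3% of those that rose, in 19% of the mitosis genes and in 69.2% of the replication genes. CCAAT was found in 38.7% of all and in 63.2% of those that rose. The mitosis lists here were those of mitotic entry, checkpoint, kinetochore, chromosome structure and spindle. The replication lists were those of origins, fork, nucleotide supply and chromatin assembly. The lists of G1/S control and centriole duplication were in neither set, so genes in neither can still be division genes. Of the 44 windows of genes that rose and belong to neither, 22.7% held a CHR match, 38.6% an E2F match and 56.8% CCAAT. Shares were not taken for mitosis and replication genes that did not rise. The shares above therefore cannot be told apart from what such genes carry in general. Of 20 windows of genes that fell, 4 held a CHR match, 1 an E2F match and 7 a CCAAT box. A match is a string of letters and not a shown site.

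The 250 bases before the start are given for 5 genes that rose, to show how the elements sit. They are Cdc20 and Top2a among the mitotic genes, Cdk1 with both kinds of element, Mcm5 of the replication lists and E2f7 of G1/S control. Each runs 5′ to 3′ on the strand of the gene, with matches on either strand in capitals (a match on the other strand appears as its reverse complement, so that a CCAAT box then reads ATTGG). The positions are chr20:19265043-19265292 (plus strand) for Cdk1, chr5:137255800-137256049 (minus) for Cdc20, chr10:84473094-84473343 (minus) for Top2a, chr19:13488563-13488812 (plus) for Mcm5 and chr7:48036653-48036902 (plus) for E2f7, all in GRCr8.
Cdc20: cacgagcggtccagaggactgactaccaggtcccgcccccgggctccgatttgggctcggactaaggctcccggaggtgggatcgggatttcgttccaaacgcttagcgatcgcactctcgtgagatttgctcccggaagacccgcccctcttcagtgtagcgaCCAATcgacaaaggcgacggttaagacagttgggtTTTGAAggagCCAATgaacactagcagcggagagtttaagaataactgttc
Top2a: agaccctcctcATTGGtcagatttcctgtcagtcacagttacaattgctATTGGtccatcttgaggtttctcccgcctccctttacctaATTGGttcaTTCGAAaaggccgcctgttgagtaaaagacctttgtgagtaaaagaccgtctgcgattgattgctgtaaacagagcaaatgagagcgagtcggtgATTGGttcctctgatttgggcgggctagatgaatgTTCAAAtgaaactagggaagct
Cdk1: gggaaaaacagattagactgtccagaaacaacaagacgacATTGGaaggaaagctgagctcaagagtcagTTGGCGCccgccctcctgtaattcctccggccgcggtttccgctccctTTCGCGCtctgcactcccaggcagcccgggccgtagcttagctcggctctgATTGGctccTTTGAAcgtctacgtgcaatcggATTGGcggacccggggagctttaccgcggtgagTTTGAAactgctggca
Mcm5: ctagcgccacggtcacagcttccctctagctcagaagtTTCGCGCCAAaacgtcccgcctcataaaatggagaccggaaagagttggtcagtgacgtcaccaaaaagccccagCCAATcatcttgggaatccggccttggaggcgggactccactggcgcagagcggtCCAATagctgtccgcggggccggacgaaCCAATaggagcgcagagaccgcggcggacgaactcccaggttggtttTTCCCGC
E2f7: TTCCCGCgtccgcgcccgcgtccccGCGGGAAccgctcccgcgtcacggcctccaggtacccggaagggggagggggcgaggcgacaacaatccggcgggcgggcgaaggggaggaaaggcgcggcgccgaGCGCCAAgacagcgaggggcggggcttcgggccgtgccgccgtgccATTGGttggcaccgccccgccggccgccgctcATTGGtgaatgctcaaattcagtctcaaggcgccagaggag

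Cdc20 has 1 CHR and 2 CCAAT matches and Top2a has 2 and 4, with no E2F match in either stretch. Cdk1 has 2 CHR, 2 E2F and 3 CCAAT matches. Mcm5 has 3 E2F matches, of which a pair overlaps in 1 run of capitals, and 3 CCAAT boxes, and E2f7 has 3 E2F and 2 CCAAT matches. Neither Mcm5 nor E2f7 has a CHR match in the stretch shown.

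In DMSO cells the mean level of these genes was itself lower at 24 h than at 6 h, a difference that was not tested here. Cdc20 averaged 9.75 ± 0.32 (SD, n = 3) in DMSO at 6 h, 7.74 ± 0.18 at 24 h and 9.21 ± 0.24 at 72 h, and AA cells at 24 h were at 8.65 ± 0.20. The AA value at 24 h therefore lay between the DMSO values of 24 h and 6 h. Ttk followed the same order, with 9.91 ± 0.12 at 6 h, 7.67 ± 0.04 at 24 h and 8.68 ± 0.21 at 72 h in DMSO and 8.63 ± 0.06 in AA at 24 h. Mcm3 was at 9.76 ± 0.15, 7.91 ± 0.13 and 7.89 ± 0.43 in DMSO and at 8.64 ± 0.14 in AA at 24 h. Across all 288 genes the mean level per array was 8.29 to 8.40 in DMSO and 8.70 to 8.79 in AA at 24 h, and 9.50 to 9.60 in DMSO at 6 h. DMSO arrays at 72 h spanned 8.53 to 8.84, which overlapped the AA arrays of 24 h. The plot of list levels shows the 24 h groups apart and, for p53 targets, a gap that was widest at 72 h.

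**Figure D3:**
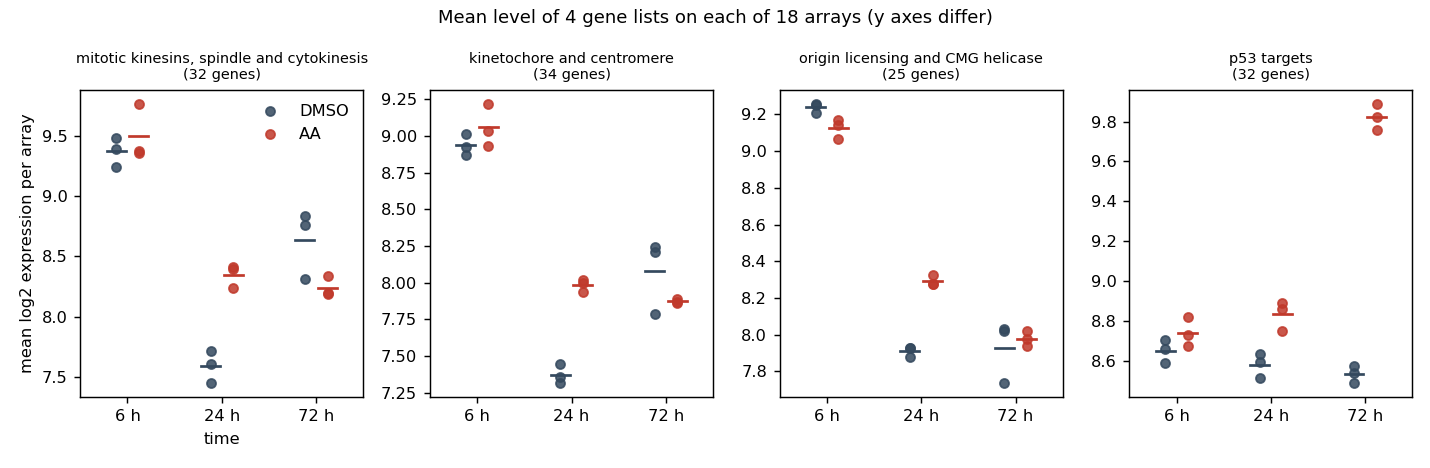
Mean log2 expression of the tested members of 4 gene lists on each of the 18 arrays, at 6, 24 and 72 h, with DMSO in dark and AA in red and a bar at each group mean; the y axes differ between panels. For the spindle, kinetochore and origin lists the AA arrays of 24 h lie above the DMSO arrays of 24 h and below those of 6 h.

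Homologous recombination and the Fanconi pathway, which repair strand breaks and crosslinks at forks, gave 7 rises and 1 fall among 21 genes, with a median of 0.44. When 1 array was left out there were 4 to 7 rises (4 without DMSO replicate 1) and 0 falls, and the median ranged from 0.29 without DMSO replicate 2 to 0.57 without DMSO replicate 1. It was 0.22 without the filter on low values. Ube2t, the conjugating enzyme for FANCD2, read 7.95, 8.13 and 7.90 with AA and 7.01, 7.16 and 7.40 with DMSO, a rise of 0.81 (SE 0.13, adjusted p = 0.00145) that held. Exo1, a resection nuclease, rose by 0.79 (SE 0.15, adjusted p = 0.00584, held), and Blm, the Bloom helicase, by 0.74 (adjusted p = 0.0147, and 0.112 without DMSO replicate 1). Mus81, a nuclease that cuts branched DNA, fell: 5.96, 5.94 and 5.85 with AA stood against 6.59, 6.62 and 6.69 with DMSO, a change of -0.72 (SE 0.16, adjusted p = 0.0199). That call was lost in each fit without 1 array (adjusted p up to 0.095, without DMSO replicate 3), while its value stayed between -0.74 and -0.68. The other rises were greater than that of Exo1. Brca1 rose by 1.35, the most of the list, and Rad54l by 0.99, and both held. Rad51ap1 rose by 1.17 (adjusted p = 0.107 without DMSO replicate 3) and Fancd2 by 0.83 (adjusted p = 0.0539 without AA replicate 2). Brca2 and Palb2 had log2 fold changes of 0.44 and 0.57 that did not pass.

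Other branches of the DNA damage response had 0 to 2 calls each, where 1.81% of all tested genes were called higher and 0.277% lower. At an unadjusted p under 0.05 in limma, 6.26% of all tested genes were higher and 4.9% lower. Excision of bulky adducts runs through the nucleotide excision repair genes, of which 0 of 20 passed, with 1 higher and 2 lower at an unadjusted p under 0.05 in limma, 0 in every alternative fit, and a median of -0.01. The damage sensor Ddb2 read 6.98, 7.06 and 6.82 with AA and 6.52, 6.63 and 6.46 with DMSO, which did not overlap, but its difference of 0.42 (SE 0.15) did not pass (adjusted p = 0.208). Xpc was at -0.10 (adjusted p = 0.803). Base excision and mismatch repair had 0 calls of 16 (1 higher and 0 lower unadjusted) and end joining 0 of 9 (0 unadjusted), with 0 in the alternative fits. In translesion synthesis 1 of 13 rose, Usp1, which takes ubiquitin off PCNA and FANCD2, by 0.44 (adjusted p = 0.028, and 0.161 without AA replicate 2), and the adduct bypass polymerase Polh was at 0.28 (adjusted p = 0.76). In the checkpoint list 2 of 20 rose, Clspn near the floor (1.36, adjusted p = 0.0019, held) and Ddias (1.22, adjusted p = 0.0144, and 0.0779 without DMSO replicate 1), while Chek1 was at 0.42 (adjusted p = 0.203) and Atr at -0.06. At an unadjusted p under 0.05 in limma, 5 of these 20 were higher and 1 lower, and in the translesion list 1 was higher and 1 lower.

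Of 32 tested p53 targets 5 were called, all of them higher, and 14 were higher at an unadjusted p under 0.05, where 6.26% of all tested genes were. The median was 0.23, and 0.13 without the filter on low values. Without DMSO replicate 1 or DMSO replicate 3 the calls numbered 3, and with arrays centred they numbered 8. Cdkn1a read 11.998, 12.04 and 12.10 with AA and 11.01, 11.02 and 10.76 with DMSO. Its rise of 1.12 (SE 0.09, adjusted p = 1.32e-06) had the lowest adjusted p of all genes at 24 h and held, and its second probe set rose by 1.19. Phlda3, an inhibitor of AKT, read 10.51, 10.68 and 10.57 against 10.10, 10.07 and 9.80, a rise of 0.60 (adjusted p = 0.00612, and 0.0541 without DMSO replicate 3). Bbc3, the BH3-only protein PUMA, rose by 0.42 (adjusted p = 0.0463, lost in all 6 fits without 1 array, with 0.208 without DMSO replicate 3), and was the only one of 18 tested BCL2 family and apoptosis genes to pass. Mdm2, the ubiquitin ligase for p53, read 11.45, 11.79 and 11.79 against 11.32, 11.23 and 11.20, and Ccng1 13.44, 13.51 and 13.70 against 13.30, 13.36 and 13.24. Neither pair of groups overlapped, and neither difference passed: 0.43 (SE 0.12, adjusted p = 0.0774) and 0.25 (SE 0.07, adjusted p = 0.0813). Gadd45a had a log2 fold change of -0.00 (SE 0.13, adjusted p = 1.0).

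Lists of growth factor, immediate early and NRF2 genes had 1 or 2 rises each, where 1.81% of all tested genes rose. At an unadjusted p under 0.05 in limma, 6.26% of all tested genes were higher and 4.9% lower. Areg, an EGFR ligand, rose by 0.86 (adjusted p = 0.0383, and 0.24 without AA replicate 1). Ier3, an immediate early survival gene, read 12.96, 12.86 and 12.81 with AA and 12.30, 12.58 and 12.35 with DMSO, a rise of 0.47 (SE 0.08, adjusted p = 0.00144) that held. Ier5, another immediate early gene, rose by 0.45 (adjusted p = 0.0238, and 0.162 without DMSO replicate 3). These were 2 of 22 tested in that list. Of the 22, 6 were higher and 0 lower at an unadjusted p under 0.05 in limma, and 18 had positive values. Among 21 NRF2 targets, the antioxidant set, 1 rose, the epoxide hydrolase Ephx1, which read 9.62, 9.91 and 9.93 against 9.42, 9.31 and 9.21 (0.51, adjusted p = 0.0167, and 0.0952 without DMSO replicate 3). Of the 21, 4 were higher and 1 lower at an unadjusted p under 0.05 in limma, and 16 had positive values. Nqo1, which also reduces the nitro group of AA, read 11.40, 11.98 and 11.93 against 12.12, 11.66 and 11.46, overlapping and at 0.02 (SE 0.16, adjusted p = 0.987). Hmox1 was at 0.44 (SE 0.26, adjusted p = 0.583). None of the 10 tested genes of AA activation and uptake passed, with 0 at an unadjusted p under 0.05 and 0 in the alternatives.

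Many stress and metabolic lists had no call in limma at 24 h. Their counts at an unadjusted p under 0.05 are to be read against 6.26% higher and 4.9% lower over all tested genes. These were ATF4 and unfolded protein response genes (26 tested, 4 higher and 1 lower unadjusted), NF-kB and inflammatory genes (11, 0 and 1), interferon-stimulated genes (15, 1 and 2), TGF-beta and matrix genes (22, 3 and 0), glycolysis (20, 1 and 0), cholesterol and fatty acid synthesis (25, 0 and 0), ribosome biogenesis (28, 1 and 2) and kidney tubule injury (11, 1 and 0). In the alternative fits 1 ATF4 and unfolded protein response gene was called higher in at least 1 fit and 1 ribosome biogenesis gene lower, and the others stayed at 0. Havcr1 and Cyp1a1, the injury marker Kim-1 and the inducible P450, averaged 1.91 and 2.48 in AA and 1.91 and 2.60 in DMSO and lay below the filter.

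Of the genes that rose, 34 were in no list, and several are proliferation genes by their known function. Knstrn, a kinetochore partner of spindle kinesin, rose by 1.03 (SE 0.17, adjusted p = 0.00183, held), and Spdl1, which recruits dynein there, by 0.92 (adjusted p = 0.0181, and 0.134 without DMSO replicate 1). Dtl, which targets CDT1 and p21 for degradation, read 9.50, 9.81 and 9.66 with AA and 9.04, 9.10 and 8.64 with DMSO, a rise of 0.73 (adjusted p = 0.00584, and 0.0517 without DMSO replicate 3). Atad2, a chromatin ATPase, rose by 0.64 (SE 0.09, adjusted p = 0.000609, held). The tubulins Tubb4b and Tubb6 rose by 0.64 (SE 0.08, adjusted p = 0.000454) and 0.39 (SE 0.07, adjusted p = 0.00273), and both held. Tubb4b read 12.43, 12.56 and 12.49 against 11.91, 11.89 and 11.77. Closely related tubulin genes can share probes, so these could in part read one another.

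A further set had roles outside division. Enc1, an actin-binding kelch protein, read 8.76, 9.13 and 9.05 with AA and 8.35, 8.48 and 8.42 with DMSO, a rise of 0.57 (SE 0.10, adjusted p = 0.00327) that held. Capg, which caps actin filaments, rose by 0.71 (adjusted p = 0.0216) and Anxa8, an annexin, by 0.71 (adjusted p = 0.0185). Each call was lost in 4 of the 6 fits without 1 array (adjusted p up to 0.163, without DMSO replicate 1). Mgst2, a microsomal glutathione transferase, read 9.29, 8.60 and 8.51 against 7.97, 8.32 and 7.59, a rise of 0.84 (adjusted p = 0.0147, and 0.109 without DMSO replicate 3) in which AA replicate 1 stood well above the other arrays. Lgals1 and S100a4, which fibroblasts and many cultured cells express, rose by 0.53 and 0.54 and reached adjusted p of 0.242 without DMSO replicate 1 and 0.136 without AA replicate 1. The other 5 tested fibroblast markers did not pass.

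Falls were fewer, and 20 of the 25 belonged to no list. Mob1b, a co-activator of the LATS kinases of the Hippo pathway, read 4.86, 5.02 and 4.54 with AA and 6.32, 5.88 and 6.41 with DMSO, a fall of 1.40 on the log2 scale (SE 0.23, adjusted p = 0.00172) that held. Sh3kbp1, the CIN85 adaptor of EGFR endocytosis, read 5.08, 5.21 and 5.25 against 6.43, 6.36 and 6.32, and it fell by 1.19 (SE 0.16, adjusted p = 0.000535), which held and which a second probe set shared at -1.09. Both groups were tight, with no array between log2 5.25 and 6.32. Ank2, an ankyrin that anchors membrane proteins, read 7.27, 7.03 and 7.12 against 8.26, 8.06 and 8.28 and fell by 1.06 (SE 0.19, adjusted p = 0.00357, held). Plcb4, a phospholipase C, read 6.42, 5.91 and 6.37 against 7.04, 7.01 and 7.18 and fell by 0.84 (SE 0.15, adjusted p = 0.0027, held). Flot1, flotillin of lipid rafts, fell by 0.53 (SE 0.09, adjusted p = 0.00265, held). Arhgap26, a GTPase-activating protein, fell by 1.29 near the floor (adjusted p = 0.00633, held), and these were, with Mob1b, the 6 falls that held without any 1 array.

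The other falls lost their call without 1 or more of the arrays. Gpc6, a glypican of the cell surface, read 9.94, 9.72 and 9.47 with AA and 10.35, 10.47 and 10.50 with DMSO, a fall of 0.73 (adjusted p = 0.0181, and 0.112 without AA replicate 3), with other probe sets at -0.64 and -0.82. Trappc9, a vesicle tether subunit, read 6.87, 6.92 and 6.35 against 7.65, 7.80 and 7.77 and fell by 1.03 (adjusted p = 0.0493). That call was lost in all 6 fits without 1 array (adjusted p up to 0.225, without AA replicate 3). Robo2, an axon guidance receptor, fell by 1.03 (adjusted p = 0.0183, and 0.138 without DMSO replicate 1), and another probe set of the gene went the opposite way at 0.22. Map2k6, the kinase that activates p38, fell by 1.15 near the floor (adjusted p = 0.00749, and 0.0569 without DMSO replicate 1). Pcca, a mitochondrial carboxylase subunit, read 6.79, 6.65 and 6.57 against 7.33, 7.36 and 7.30 and fell by 0.66 (adjusted p = 0.0271). Its call too was lost in all 6 fits without 1 array (adjusted p up to 0.119, without AA replicate 3). Sgpl1, Cox11, Tbc1d4 and Gbe1 fell by 0.95, 0.90, 0.80 and 0.50, and each lost its call in 5 of the 6 fits without 1 array, with adjusted p of 0.146, 0.236 and 0.152 for Sgpl1, Cox11 and Gbe1 without DMSO replicate 3 and 0.22 for Tbc1d4 without DMSO replicate 1.

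The genes that fell were long. Gene spans, from start to end in the RefSeq annotation of GRCr8 and introns included, had a median of 223 kb over the 24 falling genes with a span, 18.4 kb over the 163 that rose and 24.3 kb over all 8981 tested genes with a span. Of 181 tested genes over 300 kb, 11 fell (6.08%) and 0 rose, with a median log2 fold change of -0.20 and 84.5% of values negative. The share that fell was 0.406% of 985 genes from 100 to 300 kb, 0.226% of 2656 from 30 to 100 kb and 0.0582% of 5159 under 30 kb. Medians of these bins were -0.07, -0.02 and 0.01. With 1 array left out, 5 to 7 genes over 300 kb fell and 0 rose, and the median of that bin stayed between -0.24 and -0.18. Centring each array on its median left 8 falls and a median of -0.16. The other long genes among the 25 included Fgf13 (526 kb), Slc9a9 (564 kb) and Arhgap26 (786 kb), of which Fgf13 and Slc9a9 did not hold (adjusted p = 0.196 without AA replicate 3 and 0.0606 without DMSO replicate 1), and the falling genes under 30 kb were Mus81, Flot1 and L3hypdh, the last with an adjusted p of 0.157 without DMSO replicate 1.

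**Figure D4:**
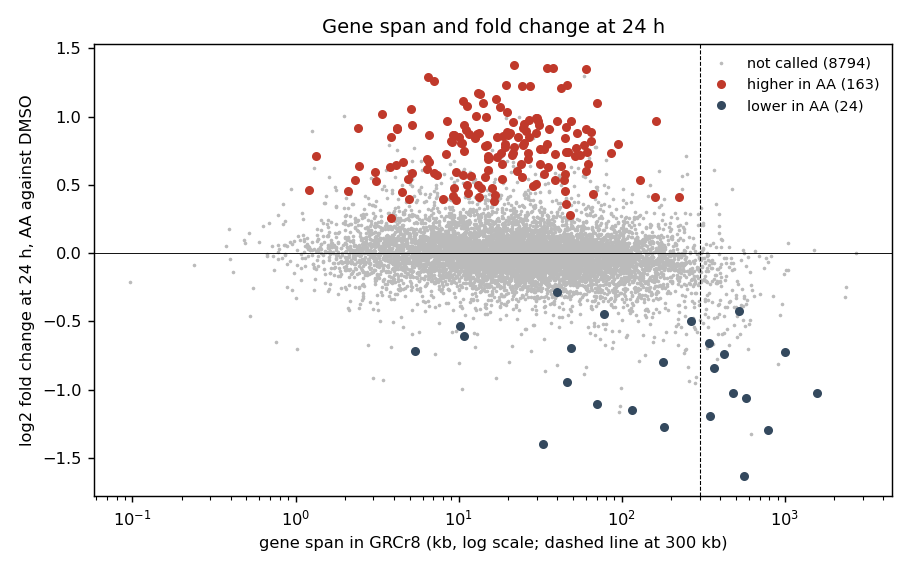
Log2 fold change at 24 h against gene span in kb (log axis) for all tested genes with a span; red points rose, dark points fell, and the dashed line marks 300 kb. The 11 called genes to the right of the line are all lower in AA, and the 163 that rose lie to its left.

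The arrays of 72 h were separate from those of 24 h, but the limma fit gave a gene the same pooled variance at all times. The calls of a gene at different times are therefore not independent. Genes called at 24 h may pass more readily at other times, in part through a small pooled variance. The shares of all tested genes at those times are only a rough reference for them. At 72 h the 163 genes that rose at 24 h had split. Of them 50 were higher in AA at 72 h, 52 were lower and 61 did not pass, where 27.4% of all tested genes were higher and 19.8% lower (47.2% in all). Of the 110 division and replication genes, 22 were higher, 44 lower and 44 not called, and of the other 53, 28, 8 and 17. Cdk1 went from 0.61 at 24 h to -0.78 at 72 h (SE 0.10, adjusted p = 4.72e-06), Ccnb1 from 0.82 to -1.59 (adjusted p = 2.86e-06) and Cdc20 from 0.91 to -1.84 (adjusted p = 3.42e-07). Cdkn1a went from 1.12 to 3.71 (SE 0.09, adjusted p = 1.56e-16) and Gtse1 from 1.13 to 2.37 (adjusted p = 2.44e-11). Some division genes were also further up at 72 h: Tyms at 1.89, Cenpm at 2.0 and Mybl1 at 2.41. Among the others, Anxa8 was at 2.67, Enc1 at 2.49, Capg at 2.15 and Phlda3 at 2.70, and each of these passed at 72 h.

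Of the 25 genes that fell, 19 were also lower at 72 h, 0 were higher and 6 did not pass. Gpc6 went from -0.73 to -4.79 (SE 0.16, adjusted p = 2.88e-14), Trappc9 from -1.03 to -4.16 (SE 0.27, adjusted p = 2.06e-10), Sh3kbp1 from -1.19 to -3.67 (SE 0.16, adjusted p = 9.01e-13) and Pcca from -0.66 to -4.11. Mob1b, whose DMSO level had itself dropped from 6.20 ± 0.28 at 24 h to 3.99 ± 0.38 at 72 h (SD, n = 3), was at -0.59 (adjusted p = 0.0436). Genes over 300 kb as a group had a median of -1.60 at 72 h and of -0.003 at 6 h. Mus81, Cox11, Sgpl1, Txlng, L3hypdh and Fam91a1 were the 6 that did not pass at 72 h, and among them Txlng and Fam91a1 had adjusted p at 24 h of 0.275 and 0.235 without DMSO replicate 1. At 6 h, 10 of the 25 were lower, 2 higher and 13 not called, and of the 163, 19 were higher, 3 lower and 141 not called, where 12.1% of all genes were higher and 12.4% lower.

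**Figure D5:**
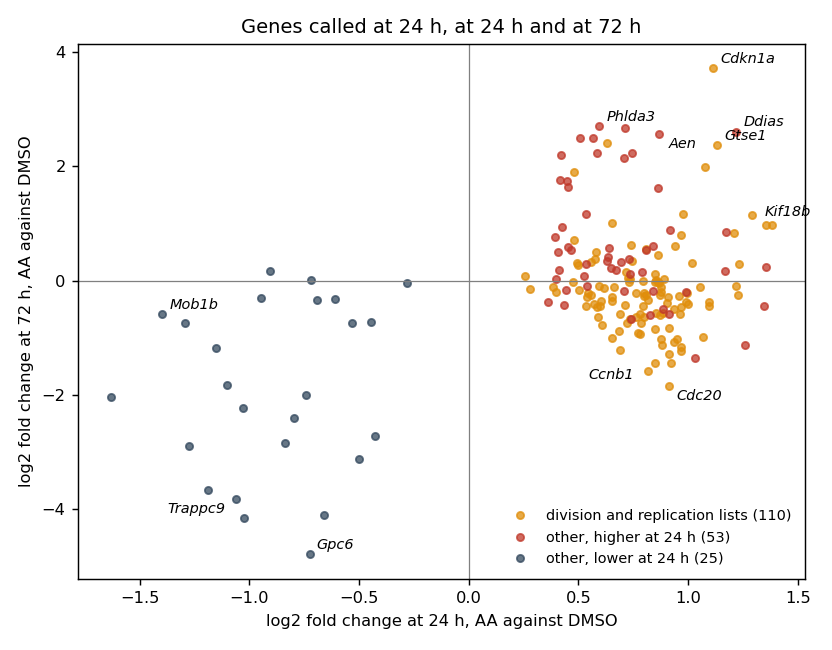
Log2 fold change of AA against DMSO at 72 h against that at 24 h for the 188 genes called at 24 h, with division and replication genes in orange, other genes that rose in red and genes that fell in dark. Orange points lie on both sides of 0 at 72 h, Cdkn1a stands highest at 3.71, and 19 of the 25 falls were also called lower at 72 h.

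The difference between the effects at 2 times was also tested. It uses the 24 h arrays that chose the 188 genes, so their counts describe rather than test. The effect at 72 h was below that at 24 h for 104 of the 163 rises and above it for 21, where 13.7% of all genes were below and 18.7% above. It was below for 12 of the 25 falls and above for 2. The effect at 24 h exceeded that at 6 h for 57 of the 163, where 1.45% of all genes did (0.976% were lower at 24 h, 2.43% in all). Without AA replicate 2 the count over all genes went from 131 to 16 higher and from 88 to 6 lower.

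Second probe sets gave a further reading. Those compared were not all the other probe sets on the array. Ank2 and Tubb6 had none among them, yet lost their calls when all probe sets of a gene were averaged. For 38 of the 188 genes, 42 other probe sets were compared, of which 37 had the same sign and 16 also passed. The 5 of opposite sign were those of Tube1, Kdm5c, Map3k20, Anp32e and Robo2. The calls of Kdm5c, Map3k20 and Anp32e did not hold either, with adjusted p of 0.0541 without DMSO replicate 3, 0.267 without DMSO replicate 1 and 0.129 without AA replicate 1. Second probe sets of the same sign that did not pass included those of Ttk (0.78, adjusted p = 0.278), Cdc20 (0.56, adjusted p = 0.242), Kif11 (0.60, adjusted p = 0.537) and Aen (0.38, adjusted p = 0.661). Hmmr and Nusap1, spindle genes, had 1.08 (adjusted p = 0.00894) and 0.96 (adjusted p = 0.0032) on their second probe sets beside 0.99 and 0.91 on those used, of which that of Hmmr did not hold (adjusted p = 0.0971 without DMSO replicate 3). Cenpw had 1.39 (adjusted p = 0.0139) beside 0.94, and Mad2l1 had 0.47 and 1.22 on the others compared beside 0.50.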

How the data were processed

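Total RNA of each culture was labelled with biotin and hybridised to Affymetrix rat arrays, 1 per sample, per the labels. The deposited values are log2 expression per probe set, and the submitters' processing notes name GCRMA, without a version or a genome build. Of 31099 probe sets, 20832 had 1 gene symbol in the platform annotation, updated by gene number from RefSeq (GRCr8). A gene was read from its probe set with the highest mean over 18 arrays, and it was tested where 3 or more arrays reached log2 4. All 18 arrays were fitted as 6 groups in R 4.3.3 with limma 3.58.1 (intensity trend, Benjamini-Hochberg). The fit was tested on simulated arrays with independent normal noise and known changes at 24 h. It called 53.73% of changes of 0.5 on the log2 scale, 94.03% of changes of 1 and 100% of changes of 2. Of its calls 4.07% were false. A change near 0.5 that did not pass can therefore be a missed one. For arrays, their number limits precision.

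The genes and lists were chosen with earlier results of these data known. Genes to name were drawn from the 25 greatest changes each way and up to 4 called members of each list. Added to these were 32 genes named whatever their test, and the 5 greatest differences between times each way. Not all of these are described above. Those left out include the greatest rise, Kif18b (1.38, held), with Cenpt (1.29, held) and Pole2 (1.36, adjusted p = 0.088 without AA replicate 2). They also include the falls Rnf180 (-1.27, adjusted p = 0.128 without DMSO replicate 1) and Cfap69 (-1.10, adjusted p = 0.164 without AA replicate 3). Genes named beyond these rules, among them Mcm5, Mcm7, Nuf2, Ska1, Aspm, Enc1 and Tubb4b, were chosen after their values were seen. Of the 32, some are not analysed here. Alternatives were another scaling, filter, moderation, probe set rule, replicate block, the 24 h arrays alone, and each array of 24 h left out. Same-numbered arrays at 24 h did not deviate together.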

Additional observations from a re-analysis of the deposited data

Results flagged for a closer look

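Treatment effects that differed between times are given as log2 differences of the AA against DMSO fold change, by limma's test of the difference, for the 5 greatest each way. From 6 h to 24 h the effect moved up by 2.15 for Arg2, 2.02 for Hey2, 1.83 for Tube1, 1.73 for Depdc7 and 1.71 for Nr4a3. In all but Tube1 the 6 h effect was negative and called and the 24 h effect did not pass, with Depdc7 at -1.89 and then -0.16, and Arg2, Hey2 and Nr4a3 near the floor at 24 h. It moved by -2.46 for Veph1, -2.42 for Nppb, -1.59 for Gys1, -1.46 for Dact2 and -1.40 for Robo2. Gys1, glycogen synthase, was at 1.56 at 6 h and -0.03 at 24 h. From 24 h to 72 h the effect moved up by 6.66 for Pln, 4.70 for Atf3, 4.45 for Spetex2l2, 4.41 for Slc51a and 4.0 for Osgin1. Atf3, a stress transcription factor, was at 0.57 at 24 h, which did not pass (adjusted p = 0.308). It moved by -4.90 for Cfap299, -4.87 for Fggy, -4.50 for Gmds, -4.07 for Gpc6 and -3.97 for Il33. Cfap299 already read 8.26, 8.08 and 7.82 with AA at 24 h against 8.60, 8.57 and 8.57 with DMSO, without passing (adjusted p = 0.0679).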

How the results depend on the processing

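No fit turned the direction of a called gene, and 64 of the 163 rises and 5 of the 25 falls passed in all 14 alternatives. The calls of Tube1, Aen, Kif11, Enc1, Tubb6 and Ank2 held with any 1 array left out. They were lost when all probe sets of a gene were averaged. With each array centred on its median, 177 genes rose and 19 fell, of which 163 and 19 were shared with those reported. Without the filter on low values, 100 genes rose and 12 fell, of which 98 and 9 were shared with those reported. With 1 array of 24 h left out, the rises ranged from 87 to 182 and the falls from 8 to 21. For the effect at 24 h minus that at 6 h, 131 genes were higher and 88 lower; centring each array gave 74 higher, no filter 44 and 34, no intensity trend 81 and 57, and leaving out 1 array 16 to 85 and 6 to 61. For 72 h minus 24 h the counts of 1682 and 1238 ranged from 1369 to 1669 and from 1049 to 1219. The replicate numbers did not pair the samples (correlations of deviations at 24 h of -0.12, -0.16 and 0.09 between same-numbered arrays); with the replicate number as a block 150 genes rose, 20 fell, and 48 were lower for 24 h minus 6 h. The 6 arrays of 24 h fitted alone gave 130 rises and 26 falls, of which 123 and 13 were shared. The cause of these shifts was not tested. Signal near the floor limits 10 of the 188 genes.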
